A study of Schizosaccharomyces pombe with 3 samples.

Results

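Binding of the cohesin subunit Psc3 was compared between fission yeast cells without the histone methyltransferase Clr4 and cells arrested in G1 through a mutation of cdc10. The comparison took 2 of the 3 arrays of the series, 1 per strain. Of the 41551 genome probes on the array, 40325 gave a value on both arrays after spots with an uneven surface were dropped. The strain clr4d lacks clr4 and was grown in rich medium at 30 °C without synchronisation. The strain cdc10-v50 carries a temperature-sensitive allele and was grown at 26 °C, then held at 35 °C for 4 h to stop it in G1. Both strains carried Psc3 fused to GFP, per the sample titles. Both were cross-linked first with paraformaldehyde (30 min at 18 °C) and then with dimethyl adipimidate (45 min). Chromatin was precipitated with an antibody to GFP. Precipitated DNA and DNA of the whole-cell extract (the input) were amplified by random-primed PCR and labelled with Cy5 and Cy3, with no dye swap. The clr4 deletion, the cdc10 allele, the growth temperature and the stage of the cell cycle differ together between these arrays and cannot be told apart here, nor can the array, its slide and its scan. With 1 array per strain the differences have no replicate check, and no test was possible; every SD below is a spread between probes of an array, not between cultures.

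Cohesin is a ring-shaped complex that holds sister chromatids together and shapes chromosome loops, and Psc3 is one of the alternative subunits that bind the ring's kleisin in fission yeast. Clr4 methylates lysine 9 of histone H3, and the resulting mark recruits Swi6, the HP1 protein of this species, at centromeric repeats, at the ends of chromosomes and over the silent mating-type genes. Swi6 is known to bind Psc3 and to concentrate cohesin in heterochromatin. Cdc10 is part of the MBF transcription factor that turns on genes for the start of S phase, and cells without its function stop before DNA replication, when each chromosome is a single chromatid.

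Enrichment is given as log2 of Cy5 (ChIP) over Cy3 (input) minus the array's median, so 0 is the level of a typical probe, and a difference of 1 or more in size is counted as 2-fold. The median processed signals over genome probes were 1193.9 in Cy5 and 1226.1 in Cy3 on the clr4d array, against 1184.0 and 1173.8 on the cdc10-v50 array. Uneven spots numbered 9 on the clr4d array and 1215 on the cdc10-v50 array, no genome probe was saturated on either, and 1 probe on the clr4d array and 79 on the cdc10-v50 array were not well above background. The clr4 label was borne out by the input: 4 adjacent probes at array positions 457801 to 459000 of chromosome II had a median Cy3 signal of 7.49 in clr4d, against 1335 in cdc10-v50. These 4 probes were left out below. Among 38643 probes on the chromosome arms, enrichment had an SD of 0.67 in clr4d and 0.60 in cdc10-v50, and the difference between the arrays had an SD of 0.47. Pearson's r between the arrays was 0.73 over arm probes and 0.17 over the 1622 remaining nuclear probes, as a description of probes that share 2 arrays.

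Psc3 enrichment was lower in clr4d than in cdc10-v50 at the centromeres, at the ends of chromosomes I and II, over the silent mating-type region and on a set of short unplaced contigs, and near equal over the arms. Of the 40325 probes, 1769 (4.39%) were at least 2-fold lower in clr4d and 794 (1.97%) at least 2-fold higher. On the arms the counts were 603 probes lower (1.56%) and 783 higher (2.03%), and the median difference was -0.02. Against these shares stood 254 of 268 centromere probes (94.8%) and 519 of 553 probes within 50 kb of the ends of I and II (93.9%) that were 2-fold lower in clr4d. The level in clr4d lay near that of a typical probe in each of these regions, so the size of each difference was set mainly by the level in cdc10-v50.

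**Figure D1:**
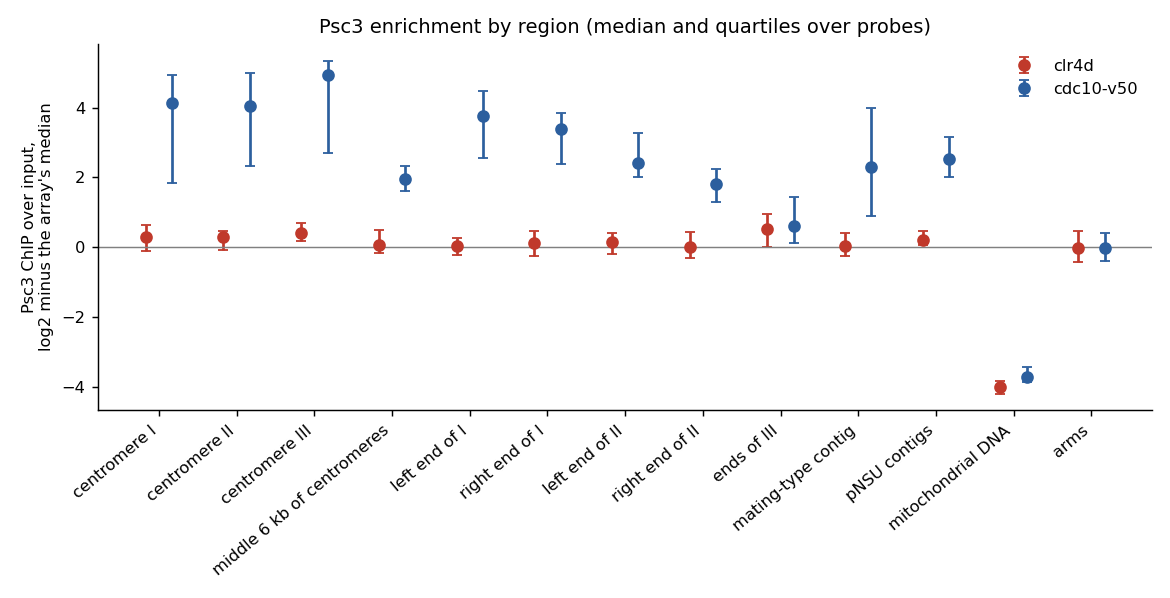
Psc3 enrichment (log2 of ChIP over input minus the array's median) by region, with points at the median over probes and bars from the first to the third quartile, for clr4d and cdc10-v50. The clr4d medians of the centromeres, the ends of I and II, the mating-type contig and the pNSU contigs lie close to the arms, while those of cdc10-v50 lie between 1.82 and 4.92 apart from the ends of III. Mitochondrial DNA is low on both arrays.

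Centromeres carried the largest median difference in enrichment among the regions when all probes are counted. Without the probes whose names end in a letter, described below, the mating-type contig had a larger one (-4.00). The outer 50 kb of I and II then had -1.93, against -1.90 at the centromeres. In Cy5 alone the ends of I and II and the contig had larger ones than the centromeres. The median enrichment of the 268 centromere probes was 0.34 (SD 0.55) in clr4d, against 4.31 (SD 1.67) in cdc10-v50, a median difference of -4.13 (SD 1.66). Centromere I had a median of 0.29 in clr4d, against 4.12 in cdc10-v50. Centromere II had 0.29 in clr4d, against 4.04 in cdc10-v50. Centromere III had 0.42 in clr4d, against 4.92 in cdc10-v50. The order of the median differences was III (-4.52), II (-3.65) and I (-3.35), and these lay closer together than the spread between probes within each centromere (SD 1.58, 1.60 and 1.78). Only 1 of the 268 probes was 2-fold higher in clr4d.

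Both dyes took part in the centromere difference when all probes are counted. With each channel set against its own median on the arms, Cy5 at centromeres was lower in clr4d by a median of -1.57 (SD 1.46), and Cy3 was higher in clr4d by a median of 2.12 (SD 1.32). With the spot's median signal less its local background in place of the processed signal, the Cy5 median was -1.58 and the Cy3 median 1.49, so which channel differed more depends on the signal used. At centromere II the channels differed alike, Cy5 by -1.68 and Cy3 by 1.65. Over the same probes the median processed Cy5 signal was 1135 in clr4d, against 9115 in cdc10-v50, and the median Cy3 signal was 1080 in clr4d, against 463 in cdc10-v50. The arms had median Cy3 signals of 1222 in clr4d, against 1185 in cdc10-v50. Pooled over the centromeres, median input thus lay near the arm level in clr4d and below it in cdc10-v50. Single centromeres differed in this. The median Cy3 signal in clr4d was 489 at I, 1032 at II and 3437 at III, against 346, 462 and 508 in cdc10-v50. The part of the input in the result was not tested further.

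Inside each centromere the difference had 2 flanks and a shallower centre. Fission yeast centromeres are built of a central core, where the histone H3 variant Cnp1 assembles the kinetochore, between outer repeats that carry heterochromatin. Windows of 2 kb were taken over the whole interval between the genes on either side, with the 5 kb at each edge that the centromere probes above leave out. Of those with at least 3 probes, 17 of 19 were 2-fold lower in clr4d at centromere I, 17 of 17 at II and 22 of 22 at III. The exceptions at I lay in such an edge, at 3786001 to 3790000 (-0.96 and -0.10). Over all windows with at least 3 probes, enrichment ranged from -0.47 to 1.51 in clr4d, against 1.55 to 5.93 in cdc10-v50, at centromere I. At II the range was -0.73 to 0.93 in clr4d, against 1.47 to 5.84 in cdc10-v50. At III it was -0.47 to 0.80 in clr4d, against 1.14 to 5.83 in cdc10-v50. Differences of -4 or below were reached in 8, 7 and 13 windows of I, II and III, which are taken here as the flanks, and the most negative window means were -5.21, -5.14 and -5.48.

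The channels differed between neighbouring stretches of the flanks. At 3762001 to 3764000 of chromosome I, array position, enrichment was 0.72 (SD 0.17) in clr4d, against 5.93 (SD 0.66) in cdc10-v50, with a Cy5 difference of -1.28 and a Cy3 difference of 3.91. At 3780001 to 3782000, on the other side of the core, it was -0.41 (SD 0.77) in clr4d, against 4.48 (SD 0.48) in cdc10-v50, with a Cy5 difference of -4.28 and a Cy3 difference of 0.59. The enrichment differences were alike at these windows (-5.21 and -4.89), while the first lay mostly in the input and the second mostly in the ChIP channel. Centromere II had the second kind at 1614001 to 1616000 (Cy5 -3.96, Cy3 1.12), and centromere III at 1138001 to 1140000 (Cy5 -3.24, Cy3 0.97).

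Array names end in the letter f, m or r for 230 of the 268 centromere probes and for 724 of the 38643 arm probes. The labels and headers do not say what the letters stand for, and the values differed with them. The 105 centromere probes ending in m had a median of 0.44 (SD 0.40) in clr4d, against 5.33 (SD 0.87) in cdc10-v50, with Cy3 signals of 6992 in clr4d, against 652 in cdc10-v50. The 125 ending in f had 0.22 (SD 0.65) in clr4d, against 2.69 (SD 1.26) in cdc10-v50. The 38 with no letter had -0.00 (SD 0.50) in clr4d, against 1.92 (SD 0.98) in cdc10-v50, a difference of -1.90. They were dim, with Cy3 signals of 89.3 in clr4d, against 25.4 in cdc10-v50. Their difference lay in the input: the median Cy5 difference was -0.05 and the median Cy3 difference 1.54. On the arms the 275 probes ending in m were about as bright in both arrays (Cy3 6811 in clr4d, against 6659 in cdc10-v50), and their enrichment differed by -0.08.

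Averaged over the central zone between the flanks, the difference lay mainly in the input channel, though single windows went otherwise. The zone spanned 3766001 to 3778000 of chromosome I, 1620001 to 1630000 of II and 1094001 to 1102000 of III. Of the windows between the flanks, only those with smaller differences were taken, so its shallower values follow in part from that choice. Left out were 3764001 to 3766000 and 3778001 to 3780000 of I and 1092001 to 1094000 of III. Their Cy5 differences were -2.36, -2.69 and -3.03, and their Cy3 differences 1.45, 1.25 and 0.04. Its windows averaged 0.28 in clr4d, against 1.78 in cdc10-v50, at centromere I. They averaged 0.10 in clr4d, against 2.02 in cdc10-v50, at II. They averaged 0.44 in clr4d, against 2.15 in cdc10-v50, at III. The mean Cy5 differences were small there (0.07, -0.27 and -0.12 at I, II and III), and the mean Cy3 differences were 1.55, 1.62 and 1.57 on the processed signal. Single windows differed in Cy5 in both directions. Cy5 and Cy3 differed by -1.64 and 0.87 at 1620001 to 1622000 of II, and by -0.82 and 0.45 at 3776001 to 3778000 of I. At 1622001 to 1624000 of II they differed by 0.80 and 2.36. In the middle 6 kb of each interval the median Cy5 differences were 0.42, -0.53 and 0.38 at I, II and III. Signals were also near the bottom of the scale: in the middle 6 kb of the 3 intervals (48 probes) the median Cy3 signal was 111 in clr4d, against 27.3 in cdc10-v50, and the median Cy5 signal was 115 in clr4d, against 94.3 in cdc10-v50. The median difference there, -1.72 (SD 0.82), turned to 0.15 when the background was corrected with normexp, which adds an offset to dim signals, so the central zone has no settled direction. The whole centromeres kept their direction under that correction (-4.37).

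Beside the centromeres, a shallow difference of the same direction ran on into the arms. Within 10 kb of the interval it averaged -0.27 (SD 0.38) at centromere I, -0.65 (SD 0.37) at II and -0.58 (SD 0.43) at III, all below 2-fold. At 40 to 50 kb it was -0.33, -0.35 and -0.33. At 90 to 100 kb it was 0.25, -0.04 and 0.26, with SDs of 0.33 to 0.84. In these flanks Cy5 was lower in clr4d and Cy3 differed little: in the first 10 kb the Cy5 differences were -0.28, -0.55 and -0.75, and the Cy3 differences -0.03, 0.07 and -0.19.

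**Figure D2:**
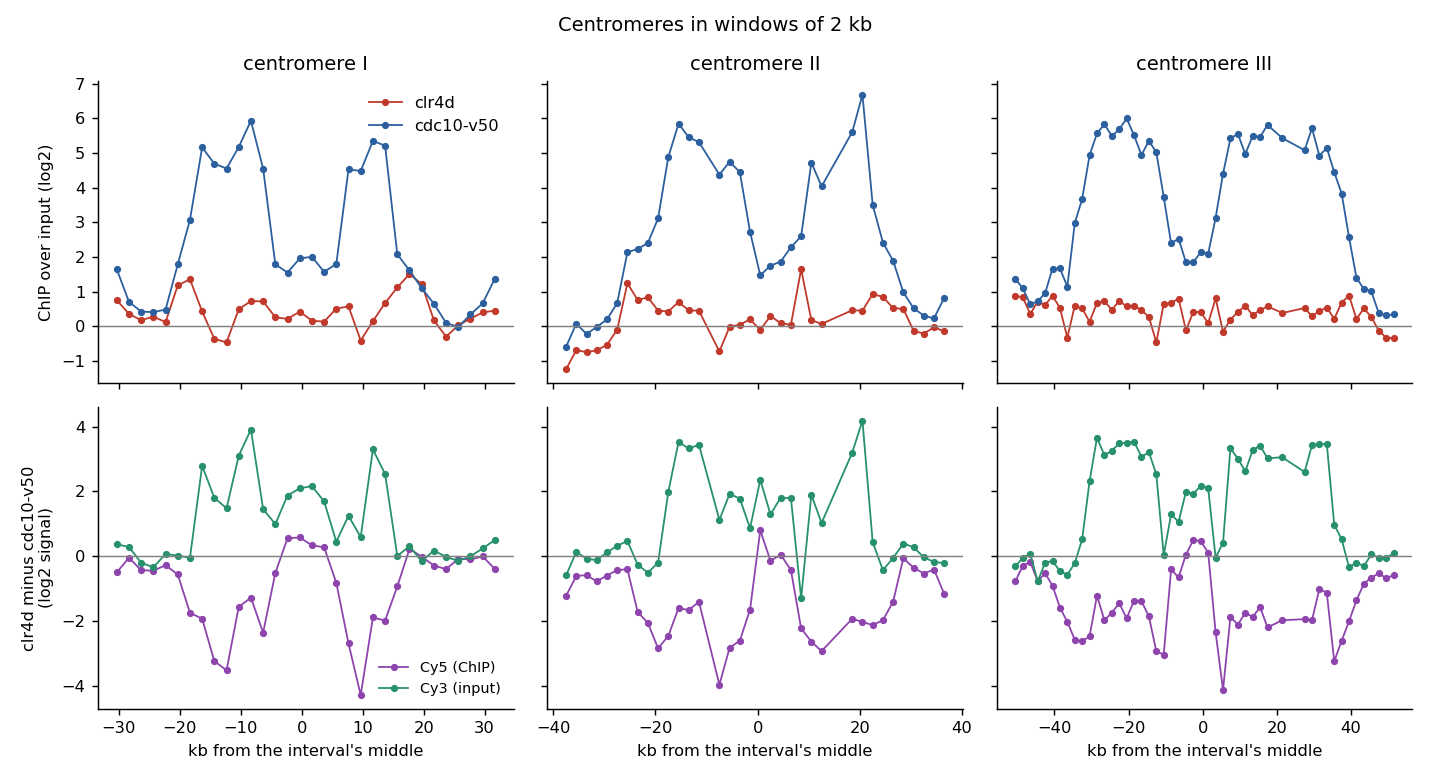
Means over windows of 2 kb against the distance in kb from the middle of each centromere interval. The upper row shows enrichment (log2) of clr4d and cdc10-v50, and the lower row the clr4d minus cdc10-v50 difference of each channel (log2 signal relative to the arms). In the central zones named above, cdc10-v50 comes down to about 2. Averaged over the windows of each zone, the Cy5 differences lie between -0.27 and 0.07 and the Cy3 differences between 1.55 and 1.62.

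At the ends of chromosomes I and II, clr4d lay at the level of the arms while cdc10-v50 was enriched, and here the ChIP channel carried most of the difference. In the outer 50 kb the median of 553 probes was 0.08 (SD 0.53) in clr4d, against 2.65 (SD 1.23) in cdc10-v50, a median difference of -2.62 (SD 1.28). Cy5 was lower in clr4d by a median of -2.16 and Cy3 higher by 0.35. The 278 probes with no letter in their names differed by -1.93 (Cy5 -2.02, Cy3 -0.12). The 257 ending in f differed by -3.44 (Cy5 -2.29, Cy3 0.93), and the 18 ending in m by -2.96 (Cy5 -1.88, Cy3 1.00). The left end of I had 0.05 in clr4d, against 3.75 in cdc10-v50. The right end of I had 0.11 in clr4d, against 3.38 in cdc10-v50. The left end of II had 0.15 in clr4d, against 2.41 in cdc10-v50. The right end of II had 0.02 in clr4d, against 1.82 in cdc10-v50. The differences shrank in that order, with -3.63 and -3.23 at the ends of I and -2.20 and -1.69 at the ends of II, and the share of probes 2-fold lower was 99.3%, 98.6%, 96.5% and 81.0%.

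The difference grew smaller inward, unevenly. Pooled over these 4 ends, the first 10 kb had a mean of 0.04 (SD 0.65) in clr4d, against 4.19 (SD 0.77) in cdc10-v50. The step from 20 to 30 kb had -0.09 (SD 0.50) in clr4d, against 2.74 (SD 1.20) in cdc10-v50. The step from 40 to 50 kb had 0.25 (SD 0.42) in clr4d, against 1.86 (SD 0.65) in cdc10-v50, and the step from 70 to 80 kb had 0.00 (SD 0.64) in clr4d, against 1.09 (SD 0.65) in cdc10-v50. At 90 to 100 kb the means were 0.18 (SD 0.67) in clr4d and 0.41 (SD 0.60) in cdc10-v50, a difference of -0.23. The step from 100 to 110 kb differed by -0.55, and the left end of II still differed by -1.09 at 100 to 110 kb and by -0.66 at 140 to 150 kb. The clr4d means stayed between -0.18 and 0.32 in all 15 steps to 150 kb, and the slope lay in cdc10-v50. The pooled Cy3 difference was 1.82 in the first 10 kb, 0.77 in the next, 0.29 at 20 to 30 kb and -0.33, -0.34 and -0.30 in the steps from 50 to 80 kb. At the left end of I input stayed higher in clr4d further in, by 0.87 at 20 to 30 kb and 0.74 at 30 to 40 kb. The pooled Cy5 difference was -2.31 in the first step and -2.51 at 20 to 30 kb. Steps of 5 kb were 2-fold lower without a break to 50 kb at the left and 70 kb at the right of I, and to 55 kb at the left and 40 kb at the right of II. The last 2-fold lower step ended at 85, 80, 110 and 60 kb from those ends.

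At the ends of chromosome III, next to the ribosomal DNA repeats, the arrays lay closer together. The outer 50 kb had a median of 0.52 (SD 1.02) in clr4d, against 0.60 (SD 1.26) in cdc10-v50, a median difference of -0.23 (SD 0.85). The left end alone had -0.32, which turned to 0.13 without the probes whose names end in a letter. Within the outer 10 kb (40 probes, all with a letter in their names) enrichment was 0.63 (SD 1.59) in clr4d, against 2.03 (SD 1.43) in cdc10-v50. That difference, -1.56, lay in the input: Cy5 differed by 0.08 and Cy3 by 1.42. From 30 to 50 kb the median enrichment difference was 0.00 over stretches that went both ways. At the left end, 30 to 40 kb had 0.74 in clr4d, against 0.24 in cdc10-v50, and at the right end, 35 to 40 kb had 0.53 in clr4d, against 1.14 in cdc10-v50. Both channels were lower in clr4d than in cdc10-v50, Cy5 by -0.75 and Cy3 by -0.78. A joint shift of this kind ran along the arms of III. From 50 to 100 kb the mean differences over probes with no letter were -0.63 in Cy5 and -0.55 in Cy3. The medians over all 7326 arm probes were -0.20 and -0.18. Over the arms of I the channels differed by 0.03 in Cy5 and 0.00 in Cy3, and over those of II by -0.05 and 0.02.

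**Figure D3:**
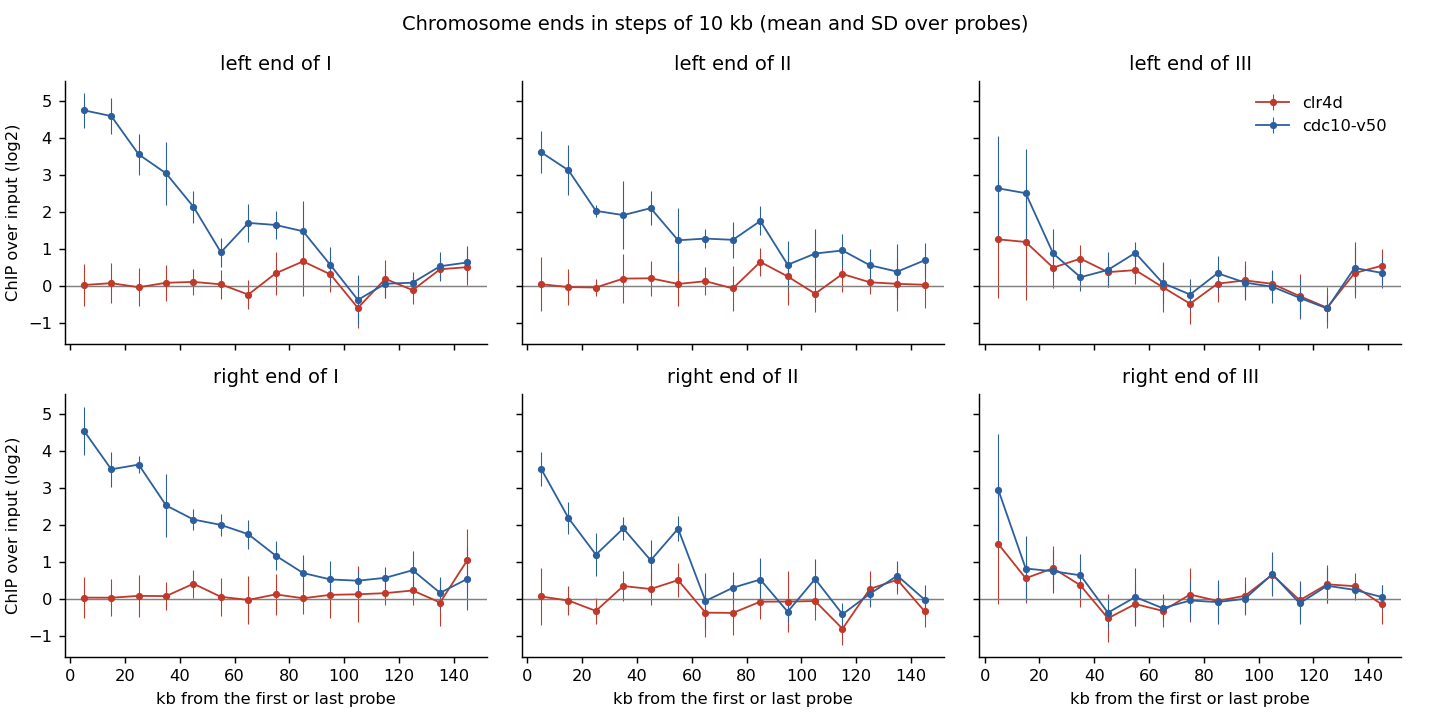
Mean enrichment (log2, bars are the SD between probes) in steps of 10 kb from the outermost probe of each chromosome end, for clr4d and cdc10-v50. On I and II the cdc10-v50 curve comes down from 3.53 to 4.76 in the first step while clr4d stays near 0, and on III the curves lie apart in the first step and close to each other from 20 kb inward (differences of -0.47 to 0.50), crossing at the left end.

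The silent mating-type region is represented by a separate contig on the array and, partly, by chromosome II. Over the contig (104 probes) the median was 0.05 (SD 0.47) in clr4d, against 2.30 (SD 1.75) in cdc10-v50, a median difference of -2.06 (SD 1.71), and 74 probes were 2-fold lower (71.2%). The arrays met at the left edge: the first 3 kb had 0.56 (SD 0.07) in clr4d, against 0.62 (SD 0.16) in cdc10-v50. From 6 to 18 kb cdc10-v50 lay between 0.63 and 1.03, and differences were -0.70 to -1.05. From 21 to 39 kb enrichment was -0.31 to 0.43 in clr4d, against 3.84 to 4.98 in cdc10-v50. The most negative window, 30001 to 33000 of the contig, had 0.13 (SD 0.35) in clr4d, against 4.98 (SD 0.30) in cdc10-v50, a difference of -4.85. Input was higher in clr4d in that window and the one before it, by 2.34 and 2.15, and by 0.48 to 1.09 in the other windows from 21 to 39 kb, while Cy5 was lower by -2.49 to -3.65 throughout that stretch. The 47 probes with no letter in their names had a median difference of -4.00, and the 57 ending in f had -1.16, so the median over the contig depends on which are counted.

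On chromosome II itself, the same plateau stood at array positions 2130001 to 2140000. The window from 2130001 had 0.22 (SD 0.66) in clr4d, against 3.24 (SD 1.08) in cdc10-v50. The window from 2135001 had -0.15 (SD 0.39) in clr4d, against 2.93 (SD 0.84) in cdc10-v50. Differences near 2-fold, -1.11, -1.11 and -1.02, continued in the next 3 windows to 2155000, and the difference was -0.40 at 2160001 to 2165000. It was -0.71 and -0.87 in the following windows, where cdc10-v50 has one of its tallest arm peaks, and -0.06 from 2175001. The Cy3 difference stayed between -0.03 and 0.28 from 2130001 to 2165000.

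The array also holds 9 short contigs named pNSU, whose place in the genome the labels and headers do not state. Their 123 probes had a median of 0.22 (SD 0.50) in clr4d, against 2.53 (SD 1.30) in cdc10-v50, a median difference of -2.36 (SD 1.14), with Cy5 at -1.19 and Cy3 at 1.14. Contig pNSU65 had 0.26 in clr4d, against 2.75 in cdc10-v50, with all 18 probes 2-fold lower, and pNSU21 had 0.34 in clr4d, against 2.80 in cdc10-v50, with all 26. Contig pNSU71 stood apart, with 0.08 in clr4d, against 0.26 in cdc10-v50, and 8 of 28 probes 2-fold lower. Mitochondrial DNA, which nuclear cohesin does not meet in the living cell, had a median of -4.00 (SD 0.34) in clr4d, against -3.70 (SD 0.37) in cdc10-v50, a median difference of -0.37.

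Over the arms, windows of 5 kb were alike. Of 2405 windows, 2198 (91.4%) differed by less than 0.5 in size, the SD of the differences was 0.31 and their median -0.00. Windows 2-fold lower in clr4d numbered 26 (1.08%) and windows 2-fold higher 3 (0.125%). Of the 26, 20 lay within 120 kb of an end of I or II, where there are 57 windows, and 3 lay within 20 kb of the mating-type interval, where there are 10. The lowest window, at 60001 of chromosome I, had -0.29 in clr4d, against 1.84 in cdc10-v50, a difference of -2.13 (SD 0.63). Of the 10 lowest windows, 9 were of this subtelomeric kind and lay in the ChIP channel, with Cy5 at -1.52 to -2.30 and Cy3 at -0.53 to 0.19. The remaining one, at 275001 of chromosome III, holds the gene mae2 and is described below. Beside it, only 2 of the 26 lay away from ends and mating-type interval: 1170001 of III, within 50 kb of the centromere (-1.05), and 690001 of II (-1.14), whose 13 probes all carry the letter m.

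Windows higher in clr4d were few, and under loess none of them stayed past 2-fold. All 3 lay away from the ends of I and II, the mating-type interval and the centromeres, as did 2278 of the 2405 arm windows. The window at 1480001 of chromosome I had 0.56 in clr4d, against -0.59 in cdc10-v50, a difference of 1.15 (SD 0.57). The window at 1835001 of III had 0.45 in clr4d, against -0.60 in cdc10-v50, a difference of 1.05 (SD 1.01). The window at 5090001 of I had 1.32 in clr4d, against 0.28 in cdc10-v50, a difference of 1.04 (SD 0.71). Under loess these differences were 0.94, 0.79 and 0.90. Leaving windows aside, 10 runs of at least 5 adjacent probes were 2-fold higher in clr4d, against 32 lower. The longest higher run, 12 probes at 452401 to 456000 of I, averaged 1.64 (SD 0.57) in clr4d, against 0.20 (SD 0.71) in cdc10-v50, with Cy5 at 1.61 and Cy3 at 0.15. The steepest, 5 probes at 1837801 to 1839300 of III, averaged 1.55 (SD 0.76) in clr4d, against -0.83 (SD 0.31) in cdc10-v50. All 10 higher runs lay over 120 kb from an end, as most of the arms do. Of the 2405 arm windows, 57 lay within 120 kb of an end of I or II. Of the 32 lower runs, 6 lay over 120 kb from an end. Of 71 arm probes at least 4-fold higher in clr4d, 49 had no neighbour past 2-fold, against 9 of 71 at least 4-fold lower; most of the very high single probes were thus alone, and most of the very low ones stood in a row.

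**Figure D4:**
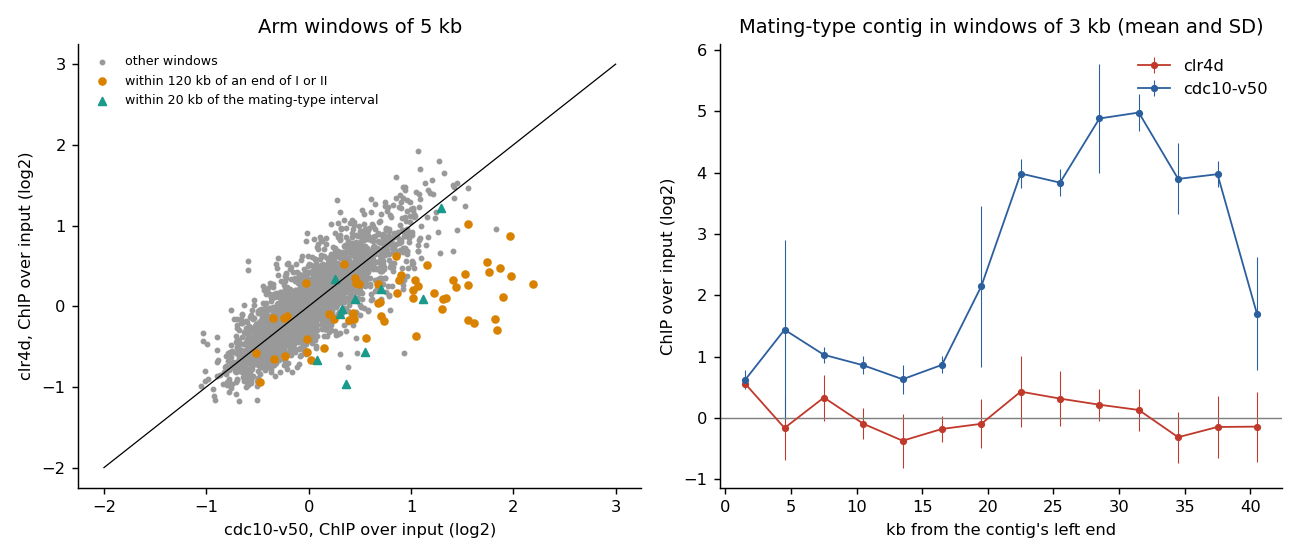
On the left, mean enrichment of the 2405 arm windows of 5 kb in clr4d (vertical, log2) against cdc10-v50 (horizontal, log2), with the line of equal values. Of the 57 windows within 120 kb of the ends of I and II, 52 lie below the line, among them all 26 with 1 or more in cdc10-v50. On the right, mean and SD over probes along the mating-type contig in windows of 3 kb, where clr4d stays near 0 and cdc10-v50 reaches 4.98.

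In the main processing, peaks of Psc3 on the arms were about as many and as high in both strains. Under loess the shared parts of both sets lay further apart, as given in the last section. A peak was a stretch of 3 or more probes with a smoothed enrichment (running mean over 3 probes) of 1 or more. There were 311 in clr4d with a median height of 1.44, and 271 in cdc10-v50 with a median height of 1.38. Of the clr4d peaks 59.8% overlapped a cdc10-v50 peak, and 67.2% of the cdc10-v50 peaks overlapped a clr4d peak. Peaks without an overlap were mostly enriched in the other strain too, below the threshold: the 125 of clr4d had a median of 1.23 in clr4d, against 0.64 in cdc10-v50, and the 89 of cdc10-v50 had a median of 0.69 in clr4d, against 1.18 in cdc10-v50. Of the 311 clr4d peaks, 22 were 2-fold higher in clr4d, and of the 271 cdc10-v50 peaks, 11 were 2-fold lower in clr4d. All of these were peaks without an overlap. Each set was called on its own array, so the direction followed from the way peaks were chosen. Among the peaks without an overlap, 10 of clr4d and 6 of cdc10-v50 rested on 1 probe.

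Most of the tallest clr4d peaks had a counterpart in cdc10-v50, and fewer of the tallest cdc10-v50 peaks had one in clr4d. Among the 10 tallest of clr4d, 8 overlapped a cdc10-v50 peak, such as 737101 to 740400 of chromosome I, with 2.07 in clr4d, against 1.47 in cdc10-v50, and 912001 to 916800 of II, with 1.64 in clr4d, against 1.56 in cdc10-v50. The very tallest of clr4d, at 968101 of III, rested on a single probe of 6.57 beside neighbours of at most 0.83. Among the 10 tallest of cdc10-v50, 6 had no overlap. Of these, 59101 to 80100 of I had 0.06 in clr4d, against 1.67 in cdc10-v50, 5503201 to 5524500 of I had 0.06 in clr4d, against 1.85 in cdc10-v50, and 4449601 to 4460400 of II had 0.44 in clr4d, against 1.81 in cdc10-v50; these are the inner parts of the chromosome ends. The tallest of all in cdc10-v50, at 4907701 to 4908900 of I, had 0.98 in clr4d, against 3.19 in cdc10-v50, and 3 of its 4 probes carry the letter f.

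Genes could be named only from 50 to 1000 kb of chromosome III, where array positions matched the RefSeq assembly ASM294v3. Of 374 genes there, 337 had at least 3 probes. The median difference was 0.02, the SD 0.37, and the SD without mae2 0.29. At 2-fold, 1 gene was lower in clr4d (0.297%) and 0 were higher (0.00%); at 1.5-fold, 5 were lower (1.48%) and 12 higher (3.56%).

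The one gene past 2-fold was mae2 (III, 275261 to 277262, minus strand), which encodes the malic enzyme. Its 6 probes, from left to right, read -0.20, -0.36, -0.78, -0.78, -0.83 and -0.86 in clr4d, against 2.31, 3.88, 4.12, 2.90, 3.52 and 3.44 in cdc10-v50. Every probe was below the arm level in clr4d and far above it in cdc10-v50. The mean was -0.63 (SD 0.28) in clr4d, against 3.36 (SD 0.66) in cdc10-v50, a difference of -4.00 (SD 0.83), with Cy5 at -1.80 and Cy3 at 2.18. Centromeres had medians of -1.57 and 2.12 in these channels. The first 10 kb of the left end of I had means of -2.08 and 2.63, and 10 to 20 kb of the right end of II had -2.10 and 0.12. All 6 probes carry the letter f. In ASM294v3, 452 of the gene's 2002 bases lie in words of 25 bases that occur again near the ends of I and II, in 11 stretches of up to 79 bases, which make 26 matches over the copies. Of the 23 other genes named here by their difference, cox19 was the exception in sharing any such word with another place (10 of 1207 words). The stretch of mae2 with the longest match is shown with its copies near the left end of I and the right end of II, to let the similarity be read. It runs from 276568 to 276736 of chrIII and lies in the coding sequence; the copies, at 8052 to 8220 of chrI and 4524328 to 4524496 of chrII, lie in the pseudogenes SPAC212.09C and SPBCPT2R1.07C. Sequences are from RefSeq (ASM294v3), on the plus strand for III and II and the minus strand for I, and capitals mark the bases that differ from mae2.
mae2, chrIII:276568-276736: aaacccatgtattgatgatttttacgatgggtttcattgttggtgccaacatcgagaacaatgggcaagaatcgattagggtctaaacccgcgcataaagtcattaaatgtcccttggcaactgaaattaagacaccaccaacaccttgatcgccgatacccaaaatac
copy on I, chrI:8052-8220: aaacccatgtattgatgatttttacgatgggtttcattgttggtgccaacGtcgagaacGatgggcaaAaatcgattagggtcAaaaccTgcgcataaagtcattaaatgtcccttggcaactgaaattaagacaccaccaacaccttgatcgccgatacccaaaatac
copy on II, chrII:4524328-4524496: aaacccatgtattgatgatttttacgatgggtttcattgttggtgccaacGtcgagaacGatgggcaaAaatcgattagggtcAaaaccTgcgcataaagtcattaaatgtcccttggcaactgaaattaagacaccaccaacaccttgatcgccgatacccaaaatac
Both copies differ from mae2 at the same number of bases, 5 of 169, and the copies are the same as each other over this stretch. How much of the DNA from these copies hybridised to the mae2 probes was not tested.

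The 12 genes named for more Psc3 in clr4d, picked for their large differences, lay between 0.51 and 0.86. The 4 probes of mug73 (a meiotically upregulated gene; III, 623516 to 624527) read 1.90, 1.86, 1.91 and 1.76 in clr4d, against 1.01, 1.05, 1.01 and 0.95 in cdc10-v50. Its mean difference was 0.86 (SD 0.05), with Cy5 at 0.89 and Cy3 at 0.02. It was followed by vma21, needed to assemble the vacuolar proton pump (0.32 in clr4d, against -0.52 in cdc10-v50), cox19, a mitochondrial copper-related protein (1.09 in clr4d, against 0.30 in cdc10-v50), and SPCC1795.12C (1.44 in clr4d, against 0.66 in cdc10-v50). The nuclease subunit gene mus81 had 1.26 in clr4d, against 0.54 in cdc10-v50, and SPCC1020.13C had 1.04 in clr4d, against 0.33 in cdc10-v50. The acetyltransferase subunit gene naa20 had 1.89 (SD 0.28) in clr4d, against 1.19 (SD 0.15) in cdc10-v50. Then came lyr2 (0.69), opy1 (0.67), SPCC18B5.05C (0.63), SPCC794.03 (0.54) and knh3 (0.51), given as differences. The channels split unevenly among them: the difference lay in Cy5 for mug73, lyr2 (0.67) and opy1 (0.62), and in Cy3 for cox19 (-0.85) and mus81 (-0.70). All 12 were on the arm level or above it in clr4d.

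The genes named as lower in clr4d, picked in the same way, lay between -0.38 and -0.84 apart from mae2. The glycolytic enzyme gene tpi1 (triosephosphate isomerase; III, 939913 to 940869) had a mean of -0.97 (SD 0.41) in clr4d, against -0.13 (SD 0.36) in cdc10-v50, a difference of -0.84 (SD 0.12), with Cy5 at -0.33 and Cy3 at 0.50. The branch-point binding protein gene bpb1, which acts in splicing, had -0.31 in clr4d, against 0.33 in cdc10-v50. SPCC757.04 had 0.46 in clr4d, against 1.09 in cdc10-v50, and ggc1 had -0.79 in clr4d, against -0.25 in cdc10-v50. They were followed by mgl1 (-0.51), hif2 (-0.49), ago1 (-0.47), cbr1 (-0.47), xks1 (-0.42), ure7 (-0.40) and atg1 (-0.38, the kinase that starts autophagy), given as differences.

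Gene groups could be read only for the few members on this stretch. Of 25 genes of heterochromatin and RNA interference 4 were measured, with a median difference of -0.14 and none past 1.5-fold: ago1, the Argonaute protein, had 0.30 in clr4d, against 0.78 in cdc10-v50, and raf2, a subunit of the Clr4 complex, had -0.56 in clr4d, against -0.52 in cdc10-v50. Of 24 heat and stress genes 3 were measured (median -0.33): the catalase gene ctt1 had 0.38 in clr4d, against 0.95 in cdc10-v50, while pmp20, a peroxiredoxin, had -1.38 in both. Of 28 kinetochore and spindle checkpoint genes 5 were measured (median -0.23), from fta4 with -0.77 in clr4d, against -0.45 in cdc10-v50, to mis18 with 0.05 in clr4d, against -0.15 in cdc10-v50. Of 142 ribosomal protein genes 5 were measured (median 0.01), from rpl101 (-0.12) to rpp21 (0.23). The elongation factor genes tef101 and eft202, of whose 3 probes each 3 and 2 carry a letter, differed by -0.45 and -0.33, and the glycolysis list had tpi1 as its sole measured member. None of the 11 genes of cohesin and its loader and none of the 17 targets of Cdc10 lie on the stretch. The median over all 337 genes was 0.02, and no list but glycolysis had a member past 1.5-fold.

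Between genes, Psc3 was highest where neighbours converge, in both strains. Cohesin is known in yeasts to gather where transcription units meet tail to tail. Over 37 probes in 20 convergent intervals of this stretch the median was 0.73 (SD 0.64) in clr4d, against 0.56 (SD 0.50) in cdc10-v50. Over 298 probes in 128 intervals between genes in tandem it was -0.07 (SD 0.76) in clr4d, against -0.14 (SD 0.51) in cdc10-v50. Over 358 probes in 81 divergent intervals it was -0.33 (SD 0.73) in clr4d, against -0.46 (SD 0.52) in cdc10-v50. The median differences, 0.23, 0.08 and 0.06, were smaller than the spread between probes (SD 0.32, 0.49 and 0.58), and the order convergent, tandem, divergent was the same in both strains. Around the middle of 99 convergent pairs the mean was 0.45 (SD 0.70) in clr4d, against 0.37 (SD 0.60) in cdc10-v50, and around that of 99 divergent pairs it was -0.34 (SD 0.61) in clr4d, against -0.37 (SD 0.58) in cdc10-v50.

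**Figure D5:**
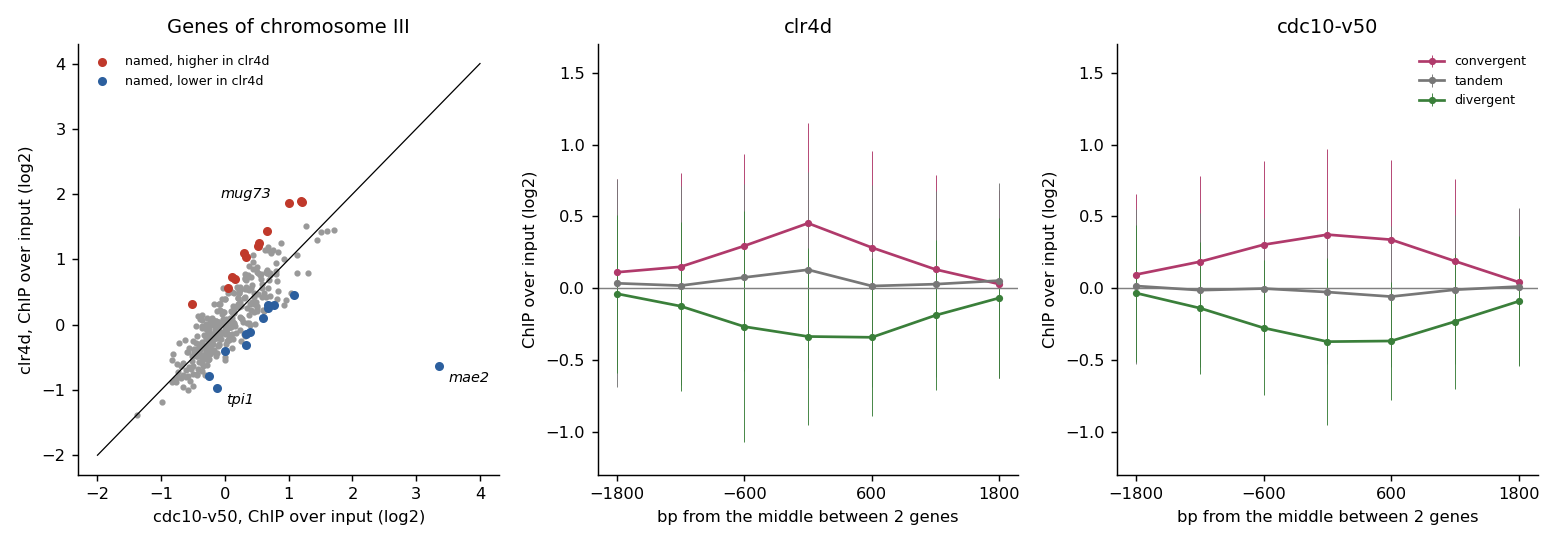
On the left, mean enrichment of the 337 measured genes of chromosome III in clr4d (vertical, log2) against cdc10-v50 (horizontal, log2), with the line of equal values and the 24 named genes coloured; mae2 lies far to the right of the line. In the middle and on the right, mean enrichment (log2, bars are the SD between probes) in bins of 600 bp around the middle between neighbouring genes, for clr4d and cdc10-v50; at the middle it is highest between convergent and lowest between divergent genes on both arrays.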

How the data were processed

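Per the file headers, each array was read with Agilent Feature Extraction 11.5.1.1, which gave deposited processed intensity values after background subtraction, spatial detrending and linear dye normalization, and a log10 ratio per probe (not used further). The headers rate the clr4d array as in range and the cdc10-v50 array as one to evaluate; they name no genome build. The deposited value table, in log2, equals minus the log2 ratio of the processed signals within 0.001 on all 41551 probes of both arrays (column medians 0.04 in clr4d and 0.06 in cdc10-v50, not centred, input over ChIP), and 0 other columns of values were left unused. From the processed intensity of the deposited files, log2 Cy5 over Cy3 was computed and centred on each array's median; each channel alone was centred on its arm median.

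Centromeres were the longest gap between protein-coding genes of each chromosome in ASM294v3, less 5 kb on each side, and windows of 2 kb were counted over the whole gap. Arms were the rest of I, II and III without the outer 50 kb, the centromeres and the mating-type interval. Comparing GC content of the array's stretches of 100 kb with the assembly gave best shifts of -80 to 80 bp in the 10 stretches of III to 1000 kb, and over 500 bp in 113 of the 115 others (-1900 to 4520 bp), so genes were named only there and other positions are the array's own. The centromere intervals were placed on the array without a shift. Best shifts in the stretches at or beside their left and right edges were -1120 and 4280 bp at I, -840 and -1820 bp at II, and 60 and -880 bp at III. Their edges, their middle 6 kb and the distances beside them carry that offset. The mating-type interval of II (best shift -1780 bp) was not shifted either. Named genes were the 12 with the largest difference in each direction among those with at least 3 probes, all above background and all differing the same way, at most 1 per 10 kb; list members, windows and peaks were named by their extremes. The runs of adjacent probes, the split by probe letter and the central zones of the centromeres were described after their values were seen, as were the words that mae2 shares. The members and lists were chosen with earlier results of these data known. The summaries were tested on simulated data. Normexp (offset 50) was run on median signals, since the files hold no mean signals. Tools were Python 3.11.15, pandas 2.3.3, numpy 2.4.6, matplotlib 3.10.9, R 4.3.3 and limma 3.58.1.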

Additional observations from a re-analysis of the deposited data

How the results depend on the processing

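No paired analysis was possible because each group holds 1 array. Over the processing alternatives, 125 recomputed values stayed close to the main value and 21 did not. These were values of whole regions and intergenic classes, counts of windows, genes and peaks, and shares of peaks. Close meant within the spread between probes, within 1.5 times the count or, for shared peaks, within the confidence interval of the main share. Of the values for other regions, named windows and named genes, 561 stayed close, 24 moved and 4 changed direction. The cause was not tested. The direction changed in the middle 6 kb of the centromeres under normexp, to 0.15 (0.17 at I, 0.012 at II and 0.17 at III). Leaving out probes whose names end in f, m or r moved the centromeres to -1.90 (Cy5 -0.05, Cy3 1.54) and the mating-type contig to -4.00. It left 0 genes 2-fold lower (mae2 then has no probe), brought the window of mae2 to -0.15, and left no value for the centromere probes ending in m. It also turned the left end of III, below 2-fold either way, to 0.13. The Cy3 difference at centromeres was 1.49 on background-subtracted median signals. The centromeres ranged from -4.47 to -1.90 and the outer 50 kb of I and II from -2.95 to -1.93 over 9 alternatives. Mitochondrial DNA ranged from -0.38 to 0.05. Windows higher in clr4d numbered 5 under normexp and 0 under loess; windows of 2 kb gave 27 higher and 63 lower, windows of 10 kb 0 higher and 14 lower, and a 1.5-fold threshold 61 higher and 67 lower. Normexp made 1 gene (mug73, 1.15) 2-fold higher and 2 (mae2 and tpi1, -1.05) 2-fold lower. Shared peaks became 72.7% of cdc10-v50 peaks under normexp, 45.7% of clr4d and 76.2% of cdc10-v50 peaks under loess, and 67.7% of clr4d peaks after scaling by the arm SD. A peak threshold of 1.5 left 86 peaks in clr4d and 77 in cdc10-v50, with 43.0% and 48.1% shared. A running median for peaks and window medians were chosen after seeing the data; the running median gave 310 peaks in clr4d and 270 in cdc10-v50.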
